A study of Mus musculus with 15 samples.

Results

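The mRNAs described here are those of the SNARE and SNARE-binding genes in the RNA of plasma extracellular vesicles (EVs) of mice. They were taken as every symbol of the count files made of Stx, Stxbp or Vamp followed by a digit, or of Snap followed by digits only. This gave 36 of 43472 symbols. The rule used names and no measured value. By class, they are 13 Qa syntaxins, 2 Qc syntaxins (Stx6 and Stx8), 4 SNAP genes, 7 Vamp genes, 7 syntaxin-binding genes, 2 pseudogenes (Stxbp3b and Vamp7-ps) and Snap91, a clathrin adaptor that shares the name but is no SNARE.

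The 15 libraries came from plasma EVs of 3 WT samples (C57BL/6 mice), 6 dystrophic samples (Sgcb null mice) and 6 hypertrophic samples. The labels give the hypertrophic mice as MAGIC F1 and the study's methods as Mstn-null, so only the condition is used. All samples were untreated, each pooled the EVs of 2 to 3 mice aged 3 to 6 months per the methods, and the RNA was amplified before library preparation. A p-value therefore measures the spread between such pools. The methods give fewer mice per genotype than 6 separate pools of 2 to 3 mice would need. Whether the 6 dystrophic or the 6 hypertrophic libraries are all independent is thus not known. The labels name the source serum and the design text names it plasma.

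SNARE proteins drive membrane fusion. An R-SNARE on a vesicle (a VAMP) zips together with Q-SNAREs on the target membrane, usually a syntaxin (Qa) and a SNAP protein that supplies the Qb and Qc helices. Syntaxin-binding proteins of the Sec1/Munc18 type guide this assembly, and other syntaxin-binding proteins such as tomosyn (Stxbp5) limit it. In platelets, granule secretion is known to run through VAMP8, SNAP-23 and syntaxin-11 with Munc18-2 (Stxbp2), while neurons use VAMP2 and SNAP-25, among others, at synapses.

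Gene reads per library ran from 27227 to 32563362, and levels are in CPM, counts per 1e6 gene reads. Where a gene had no count, up to 3 counts remain possible, which limits its level to 110.2 CPM in WT replicate 1 and to 0.0921 CPM in dystrophic replicate 6. These limits and the intervals below cover counting error only, because amplified copies are not independent molecules. Sgcb, the gene inactivated in the dystrophic mice, had 0 counts in 14 libraries, the 3 WT ones included, and 695 counts in hypertrophic replicate 3. Mstn had 0 counts in all 15, so it did not check the labels. The platelet markers Pf4 and Ppbp were counted in all 15 libraries. The title and the counts carry different library numbers in 6 libraries, which are dystrophic replicates 4, 5 and 6 and hypertrophic replicates 1, 2 and 3, and the numbers are crossed between these conditions. Groups follow the labels. Hypertrophic replicate 3, which held the 695 Sgcb counts, is among these 6 libraries. Exchanged, it would be a dystrophic library with Sgcb counts, and what this says about its label was not tested. The higher series of count numbers holds exactly the 6 hypertrophic libraries, so this series and the condition cannot be told apart.

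The promoters of Snap23, Stx11 and Vamp8 are shown because these genes had the highest mean levels per kb of exon among the members. The stretches are RefSeq upstream bases (GRCm38.p6), ended where the GENCODE gene starts, and lie at chr2:120567421-120567670 on the plus strand, chr10:12964299-12964509 on the minus strand and chr6:72390704-72390917 on the minus strand. Capitals mark matches, on either strand, to GATAAG (known from GATA factors), GGAAGT (known from ETS factors), the CCAAT box or the GC box, GGGCGG. These motifs do not overlap each other here.
Snap23 promoter: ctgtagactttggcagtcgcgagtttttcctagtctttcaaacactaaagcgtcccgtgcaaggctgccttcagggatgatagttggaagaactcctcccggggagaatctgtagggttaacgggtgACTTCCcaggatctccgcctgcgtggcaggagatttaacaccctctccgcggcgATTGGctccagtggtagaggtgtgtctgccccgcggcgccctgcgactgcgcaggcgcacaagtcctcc
Stx11 promoter: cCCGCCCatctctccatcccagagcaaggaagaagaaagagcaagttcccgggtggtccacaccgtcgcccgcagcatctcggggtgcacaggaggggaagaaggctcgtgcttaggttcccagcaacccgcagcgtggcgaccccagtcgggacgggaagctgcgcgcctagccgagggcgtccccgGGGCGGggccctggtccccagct
Vamp8 promoter: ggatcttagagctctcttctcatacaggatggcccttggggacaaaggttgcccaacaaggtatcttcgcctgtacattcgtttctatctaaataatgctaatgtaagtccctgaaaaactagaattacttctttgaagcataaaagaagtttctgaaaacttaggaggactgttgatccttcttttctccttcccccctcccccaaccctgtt
Snap23 held an ETS and a CCAAT match, Stx11 held GC boxes, and Vamp8 held none of the 4 motifs. Of the 36 members, 28 had a promoter entry. Over the 250 bases upstream, GGGCGG was found in 17 of them (60.7%) against 32.7% of 32851 promoters, CCAAT in 11 (39.3%) against 33.8%, GGAAGT in 5 (17.9%) against 19.7%, and GATAAG in 0 against 6.55%. Median GC content was 61.6% in these members and 52.4% over all promoters. For members with several entries, the one at the lowest coordinate was used, while all promoters include every entry. A further entry held GGGCGG in Stx2 and in Vamp4, and GGAAGT in Stx2, which these counts leave out. These are descriptions of letters in a window.

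The EV libraries held mRNA of most of these genes, but few were present throughout. At least 1 count in at least 1 library was found for 28 of the 36 members (77.8%), against 30.6% of all symbols. Apart from 2 pseudogenes the members are protein-coding, and all symbols were not matched to them in gene type. Such shares, here and below, therefore do not show an enrichment of the members. The 8 members that were never counted were Snap25, Snap91, Stx19, Stxbp3b, Stxbp4, Stxbp5l, Vamp1 and Vamp7-ps. Of the 28, 6 were counted in at least 10 libraries (21.4%, against 9.68% of all genes counted), 10 in 6 to 9 and 12 in 1 to 5. The median was 6 libraries for a counted member and 3 for any counted gene.

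**Figure D1:**
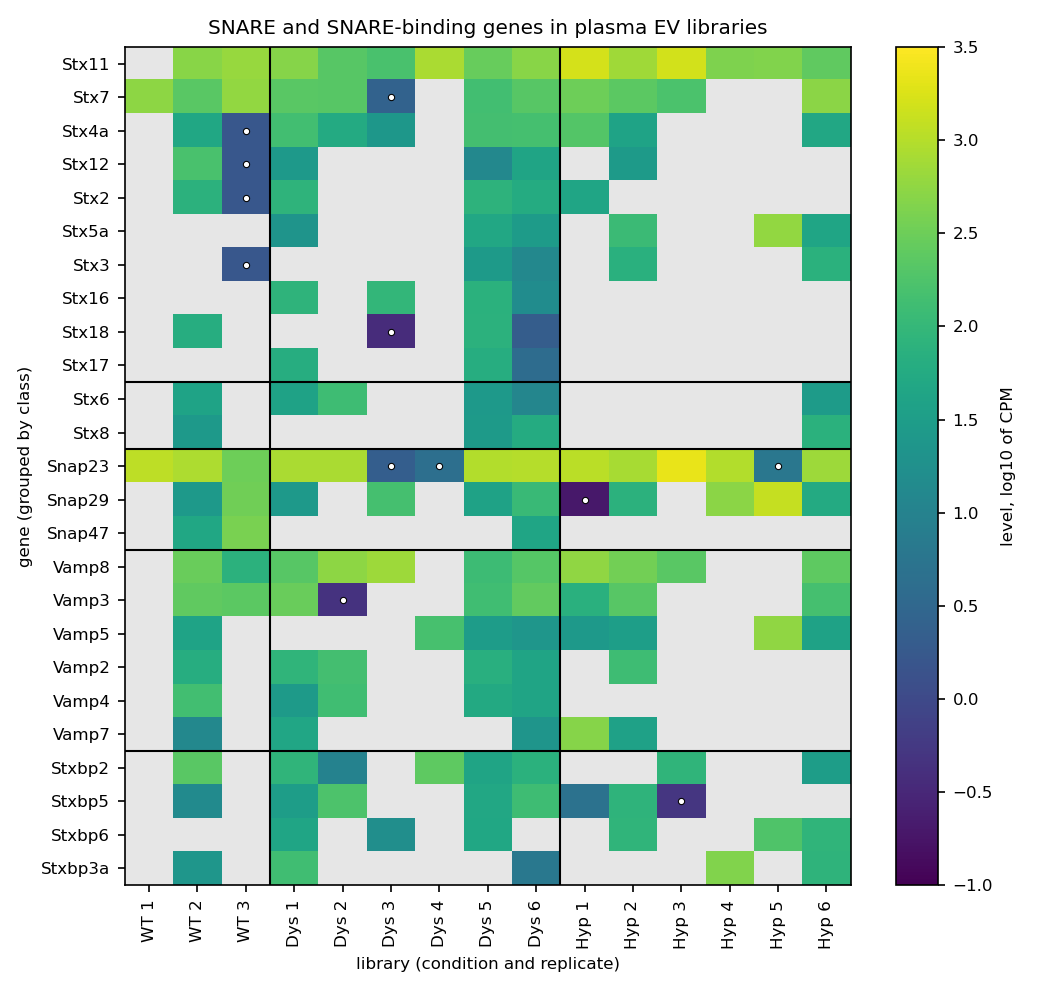
Level of the 25 members counted in at least 3 libraries (log10 of CPM, colour), with genes grouped by class and the 15 libraries in columns (Dys, dystrophic; Hyp, hypertrophic). Grey cells are 0 counts and white dots mark 1 to 9 counts; Snap23 is the 1 gene without a grey cell, and most other genes alternate between filled and grey cells.

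The libraries differed widely in how many members they held. The WT libraries held 2, 21 and 11 members. The dystrophic libraries held 20, 11, 9, 4, 24 and 26, and the hypertrophic libraries 12, 15, 6, 4, 6 and 15, in replicate order. All 3 ranges overlap. The medians were 11, 15.5 and 9, and leaving out WT replicate 2 or 1 moved the WT median to 6.5 or 16. Sampled down to 27227 reads, libraries still held from 2 to 16.95 members (mean of 20 draws). All genes detected moved with these counts, from 797 in WT replicate 1 with 2 members to 8968 in dystrophic replicate 6 with 26. The part of depth and of the number of genes detected in these differences was not tested.

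**Figure D2:**
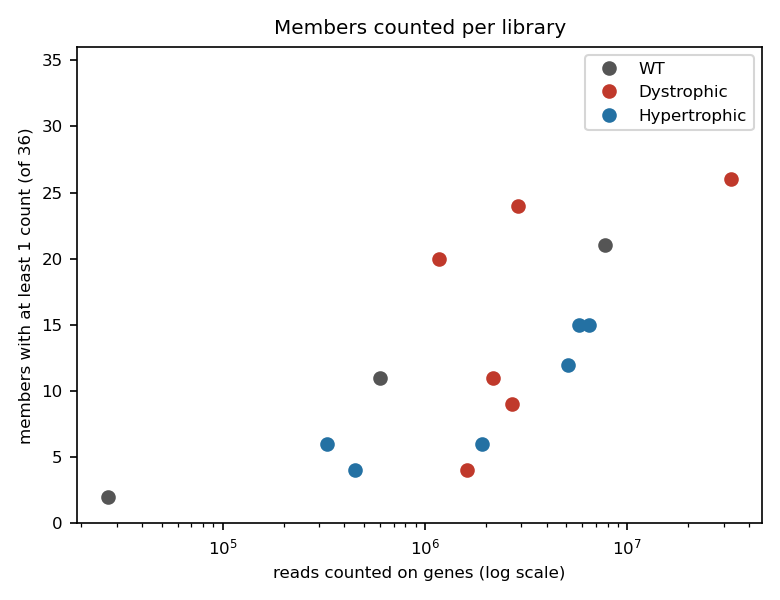
Number of members with at least 1 count (of 36) against the reads counted on genes (log scale), 1 point per library, coloured by condition. WT replicate 1, at 27227 reads, held 2 members and dystrophic replicate 6, at 32563362 reads, held 26, while dystrophic replicate 4, at 1608699 reads, held 4.

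Together the members took between 1154 and 4521 CPM of a library, with a median of 2605 CPM. The WT libraries had 1689, 3223 and 2605 CPM. The dystrophic libraries ranged from 1154 to 3154 (median 2519.7) and the hypertrophic ones from 2361 to 4521 (median 3039.7). The ranges overlap. Snap23 and Stx11 alone made up between 14.2% and 88.7% of the member counts of a library (median 47.9%). Snap23 was the most counted member in 10 libraries, Stx11 in 3, Vamp8 in dystrophic replicate 3 and Snap29 in hypertrophic replicate 5.

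Snap23 (ENSMUSG00000027287.14, chromosome 2 from 120567671 to 120601255, GRCm38) encodes SNAP-23, the widely expressed relative of neuronal SNAP-25, and was the 1 member counted in all 15 libraries. Its level was 1139, 873 and 328 CPM in the WT libraries. It was 857, 864, 2.24, 4.35, 940.2 and 1014 CPM in the dystrophic libraries and 1075, 815, 2268, 971, 6.08 and 682 CPM in the hypertrophic ones. The values fall into 12 libraries between 328 and 2268 CPM and 3 libraries with 6, 7 and 2 counts. In those 3, dystrophic replicates 3 and 4 and hypertrophic replicate 5, the mean of the other libraries of the condition predicted 1972, 1183 and 382 counts. The 95% Wilson interval in dystrophic replicate 3 was 1.03 to 4.88 CPM. In WT replicate 1, with 31 counts, it was 802 to 1616 CPM.

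Stx11 (ENSMUSG00000039232.12, chromosome 10 from 12938209 to 12964298, minus strand) encodes the Qa syntaxin of platelet and lymphocyte granule release and was counted in 14 libraries. Its level was 0, 497 and 635 CPM in WT, and 472, 216, 161, 848, 281 and 509 CPM in the dystrophic libraries. In the hypertrophic libraries it was 1653, 727, 1530.1, 426, 441 and 252 CPM. The highest libraries were hypertrophic replicates 1 and 3, and the other hypertrophic libraries lay within the dystrophic range. The 0 in WT replicate 1 lies in the shallowest library, where 15.4 counts were predicted. In the 3 libraries with few Snap23 reads, dystrophic replicates 3 and 4 and hypertrophic replicate 5, Stx11 had these 161, 848 and 441 CPM.

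Vamp8 (ENSMUSG00000050732.9, chromosome 6 from 72385223 to 72390703, minus strand), the main R-SNARE of platelet granule release, was counted in 11 libraries. It had 0, 299.7 and 76.5 CPM in WT, and 210.1, 554, 704, 0, 119.7 and 209.8 CPM in the dystrophic libraries. In the hypertrophic libraries it had 569.9, 349.96, 223, 0, 0 and 239.6 CPM. Each condition thus had a library at 0 as well as one at 299.7 CPM or more. Snap23, Stx11 and Vamp8 each reached at least 10 counts in the same library in 10 of the 15 libraries, 2 WT, 4 dystrophic and 4 hypertrophic. The 5 libraries without the full set were WT replicate 1, dystrophic replicates 3 and 4, and hypertrophic replicates 4 and 5.

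Stx7, a Qa syntaxin of late endosomes, was counted in 12 libraries. It had 551, 224 and 590.2 CPM in WT, 0 to 226 CPM (median 176) in the dystrophic and 0 to 512 CPM (median 204) in the hypertrophic libraries. Its lowest WT value lay just under the highest dystrophic one. Snap29, a SNAP protein that works on internal membranes, was counted in 11 libraries. Its levels were 0, 25.7 and 336 CPM in WT, 0 to 148 CPM (median 32.7) in the dystrophic and 0 to 1259 CPM (median 67.1) in the hypertrophic libraries, and hypertrophic replicate 5 held the top value. Stx4a, a Qa syntaxin of the plasma membrane, was counted in 10 libraries. It had 0, 48.3 and 1.66 CPM in WT, 0 to 150.1 CPM (median 96.6) in the dystrophic and 0 to 194 CPM (median 20.3) in the hypertrophic libraries. Of the Stx4a exons, 5.25% overlap a gene on the other strand, and the strand setting of the counting is not given in the sources used here.

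**Figure D3:**
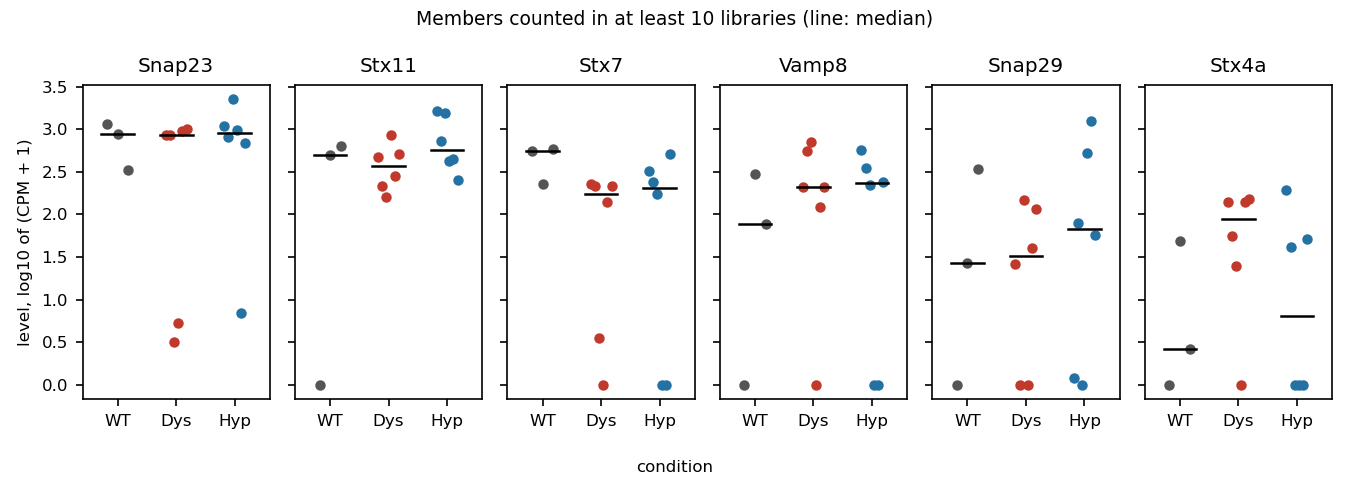
Levels (log10 of CPM + 1) of the 6 members counted in at least 10 libraries, 1 point per library by condition (Dys, dystrophic; Hyp, hypertrophic), with a line at the median of the plotted values. In every panel the points of the 3 conditions overlap, and points at 0 are libraries without a count.

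All 11 members of the platelet secretion list (Vamp2, Vamp3, Vamp7, Vamp8, Snap23, Stx2, Stx4a, Stx11, Stxbp2, Stxbp3a and Stxbp5) were counted, each in 5 to 15 libraries. A library held between 1 and 11 of them, with medians of 6 in WT, 8.5 in dystrophic and 6 in hypertrophic libraries. Their summed level was 1139, 2387 and 1277 CPM in WT, between 891 and 2474 CPM (median 1935) in the dystrophic and between 447 and 4108 CPM (median 2119) in the hypertrophic libraries. The platelet markers (8 genes, 3 of them counted in all 15 libraries) summed to 18377 to 28758 CPM in WT, 9664 to 20525 in dystrophic and 14776 to 33637 in hypertrophic libraries, and their part in these levels was not tested. In EV RNA, fewer vesicles of one origin and less RNA per vesicle cannot be told apart.

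Vamp3 (cellubrevin) was the second most widely counted R-SNARE, with 9 libraries. It had 0, 255 and 234 CPM in WT, 0 to 297 CPM (median 66.0) in the dystrophic and 0 to 216 CPM (median 35.8) in the hypertrophic libraries. Vamp2, which neurons and many other cells use, was counted in 6 libraries. These were WT replicate 2 (64.7 CPM), 4 dystrophic libraries (42.5 to 140.4 CPM) and hypertrophic replicate 2 (126 CPM). Vamp7, an R-SNARE of lysosome-related organelles, was counted in 5 libraries. It reached 486 CPM in hypertrophic replicate 1, against 12.4 to 46.1 CPM in the other 4.

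Stxbp2, the Munc18 partner of syntaxin-11, was counted in 8 libraries. It had 222 CPM in WT replicate 2, 9.73 to 244 CPM in 5 dystrophic libraries and 87.1 and 32.3 CPM in hypertrophic replicates 3 and 6. It was at 0 in 4 hypertrophic libraries in which Stx11 ran from 426 to 1653 CPM. Stxbp5 (tomosyn-1) was counted in 8 libraries too, at 14.1 CPM in WT replicate 2, 32.5 to 175 CPM in 4 dystrophic libraries and 0.524 to 84.6 CPM in 3 hypertrophic ones. Stxbp3a (Munc18-3, the partner of syntaxin-4) was counted in 5 libraries. It had 23.1 CPM in WT replicate 2, 129.8 and 6.23 CPM in dystrophic replicates 1 and 6, and 446 and 83.3 CPM in hypertrophic replicates 4 and 6. The near copy Stxbp3b, a pseudogene, had no count. Stx2, a Qa syntaxin of the plasma membrane, was counted in 6 libraries, at 78.3 and 1.66 CPM in WT replicates 2 and 3, 58.0 to 84.6 CPM in 3 dystrophic libraries and 44.5 CPM in hypertrophic replicate 1.

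Of the 7 neuronal members, 3 were counted, each in 2 libraries. Stx1a had 25.3 and 34.3 CPM in dystrophic replicates 5 and 6. Snap25, Vamp1, Stxbp5l and Snap91 were at 0 throughout. Of 4 neuron markers, Syt1, Rbfox3 and Nefl were at 0 in all libraries, and Tubb3 was counted in dystrophic replicate 5 at 3.81 CPM.

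All 5 members of the endosome and lysosome list (Stx7, Stx8, Stx12, Vamp7, Vamp8) were counted, in 4 to 12 libraries each, and all 6 of the ER and Golgi list (Stx5a, Stx6, Stx16, Stx17, Stx18, Vamp4), in 3 to 6 libraries each. Their summed levels were 551 to 723 and 0 to 242 CPM in WT, 0 to 769.5 and 0 to 344 CPM in the dystrophic, and 0 to 1377 and 0 to 578 CPM in the hypertrophic libraries. Stx5a, the Qa syntaxin of ER to Golgi transport, carried that last value alone, in hypertrophic replicate 5. Of the remaining members, Vamp5 was counted in 8 libraries, with up to 566 CPM in hypertrophic replicate 5, Stxbp6 (amisyn) in 6 and Stx3 in 5. Stx18 counts are uncertain, since 32.3% of its exons overlap a gene on the other strand.

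Compared per length, the Qa syntaxins, the SNAP genes and the R-SNAREs were each led by the same gene in most libraries. By CPM per kb of exon, Stx11 led the Qa syntaxins in 13 libraries and Stx7 in WT replicate 1 and hypertrophic replicate 6. Snap23 led the SNAP genes in 12 libraries, Snap29 in dystrophic replicate 3 and hypertrophic replicate 5, and Snap47 in WT replicate 3. Vamp8 led the R-SNAREs in 9 libraries, Vamp3 and Vamp5 in 2 each, and 2 libraries, WT replicate 1 and hypertrophic replicate 4, held no R-SNARE count. The syntaxin-binding genes had no such leader, with Stxbp2 first in 5 libraries, Stxbp6 in 4, Stxbp3a in 2 and Stxbp5 in 1, and 2 libraries without a count. Averaged over the 15 libraries, Snap23 had 184, Stx11 137, Vamp8 103, Stx7 50.7 and Snap29 50.3 CPM per kb. The next member, Vamp3, had 37.3 CPM per kb.

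**Figure D4:**
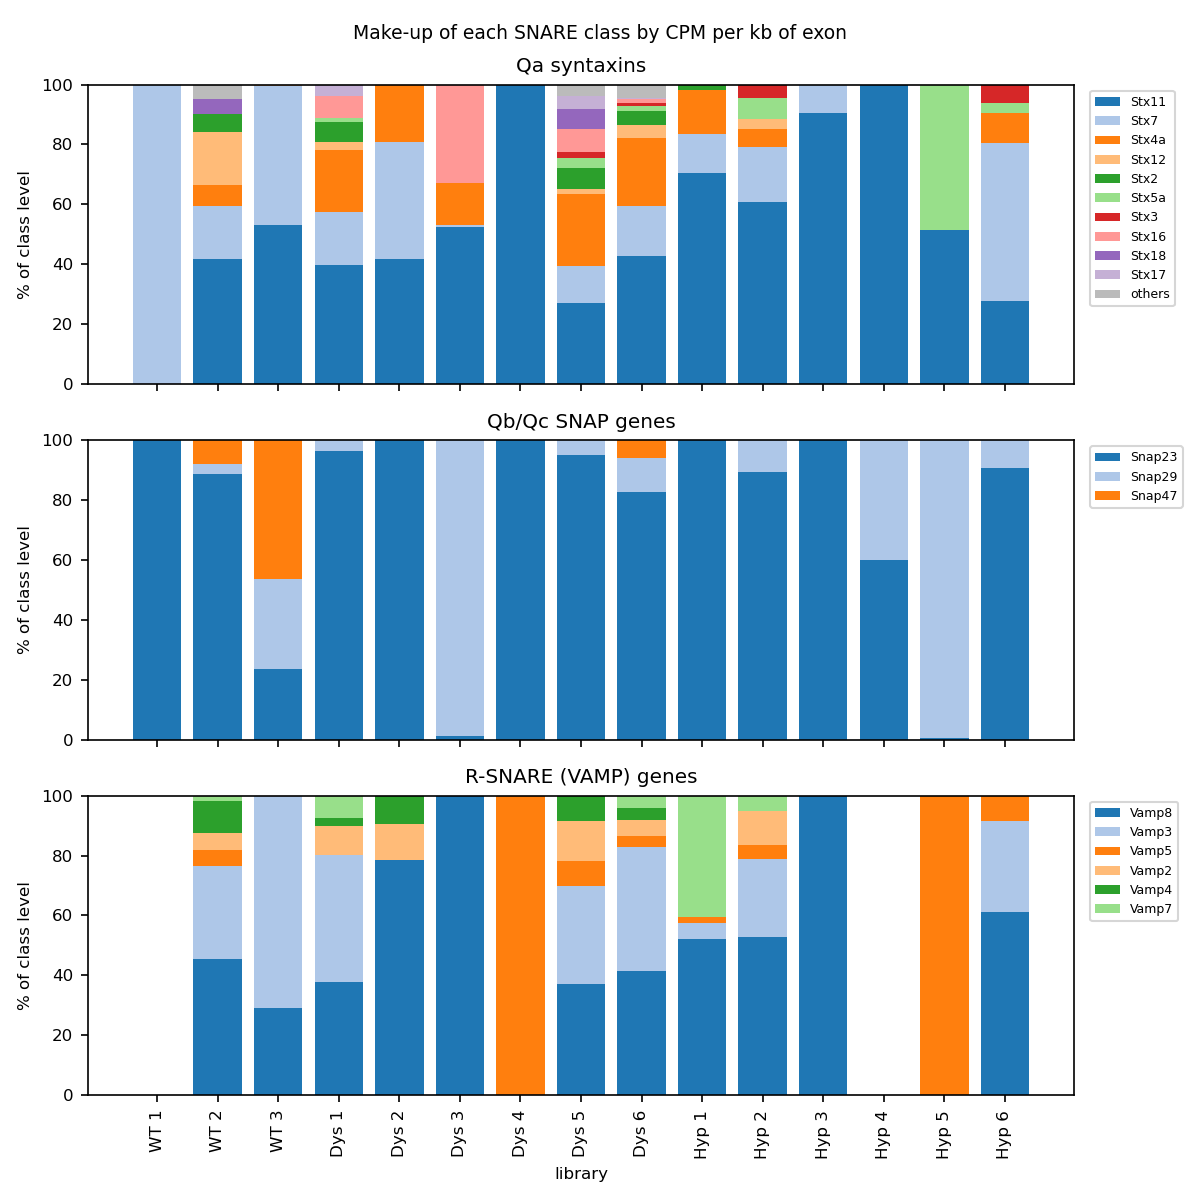
Share of each counted gene in the CPM per kb of exon of its class (percent), for Qa syntaxins, SNAP genes and R-SNAREs, with genes counted in under 3 libraries summed as others, 1 bar per library (Dys, dystrophic; Hyp, hypertrophic). Stx11 is the largest Qa share in 13 libraries, Snap23 the largest SNAP share in 12 and Vamp8 the largest R-SNARE share in 9, and 2 libraries have no R-SNARE bar. In dystrophic replicate 4 the SNAP bar rests on 7 counts of Snap23.

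Members were often at 0 in a library while other libraries of its condition held them. Of 540 pairs of a member and a library, 186 had counts and 354 had none, and 13 had between 1 and 9 counts. This is 6.99% of the pairs with counts, against 15.7% over all genes. Those 13 pairs lay at 0.195 to 6.08 CPM, while the 173 others had a median of 87.1 CPM. For 281 pairs, at least 10 counts were predicted from the mean CPM of the remaining libraries of that condition. In 127 of these (45.2%) the member had 0 counts. Over all genes the share was 56.1% of 90572 pairs, and without Snap23 and Stx11 it was 50.2% for the members.

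**Figure D5:**
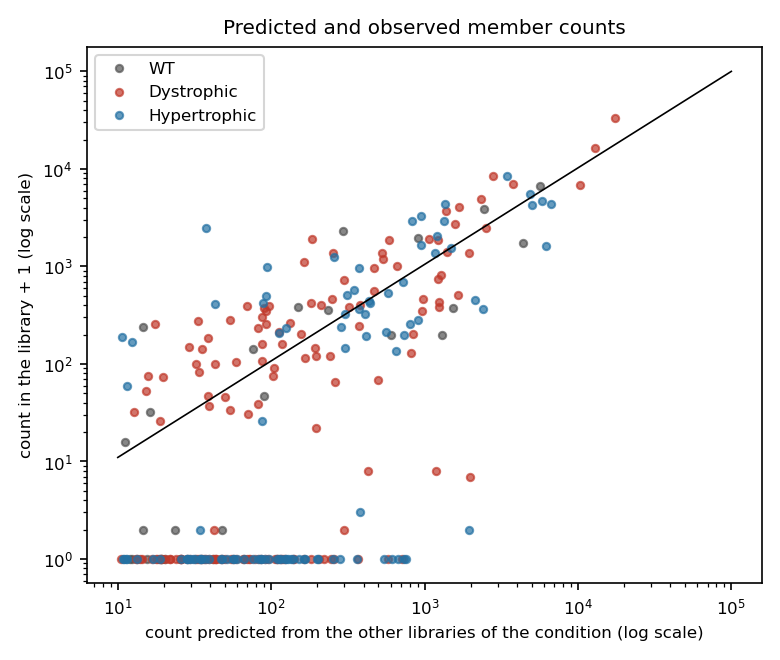
Counts of each member in each library (plus 1, log scale) against the count predicted from the mean CPM of the other libraries of its condition (log scale), for the 281 pairs with at least 10 predicted counts, coloured by condition. The line marks equal values; 127 points lie on the floor at 0 counts, 11 others have under 10% of the predicted count, and the rest scatter about the line.

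The study compared the EV mRNA of hypertrophic and dystrophic mice with that of WT. No difference between conditions passed the test for any member. With edgeR's quasi-likelihood test over the 6887 genes that passed its filter, 0 of the 23 members tested had an adjusted p under 0.05 in each comparison. Over all genes tested, 2 (0.0290%) were called in hypertrophic against WT, 1 (0.0145%) in dystrophic against WT and 1 (0.0145%) in hypertrophic against dystrophic. At an unadjusted p under 0.05, the members were 2, 0 and 3, against 8.02%, 2.02% and 12.0% of all genes, and these 5 were lower in the condition named first. Limma-trend called 0 members in each comparison too, on the same backgrounds of 0.0290%, 0.0145% and 0.0145% at an adjusted p under 0.05. At an unadjusted p under 0.05 limma-trend had 1, 2 and 2 of the 23 members, to which these backgrounds do not apply. Of all 6887 genes, 113 had such a p in hypertrophic against WT and 190 in dystrophic against WT. More genes than in either had it in hypertrophic against dystrophic. Of the 2 members in dystrophic against WT, 1 was higher and 1 lower in dystrophic libraries. The members of the other comparisons were lower in the condition named first. DESeq2 called 2 members, 0 and 2, on backgrounds of 16.5%, 14.9% and 3.89%. A p over the threshold does not show equal levels, since the biological coefficient of variation was 3.04.

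The log2 fold changes of the 6 members counted in at least 10 libraries were each smaller than their standard errors. These errors were derived from edgeR's test, as the fold change divided by the square root of its F statistic. The comparison with them therefore only restates a small F. For Snap23, the log2 fold change was 0.20 ± 1.34 (SE) in hypertrophic against WT, −0.03 ± 1.33 in dystrophic against WT and 0.23 ± 1.09 in hypertrophic against dystrophic. For Stx11 the same values were 0.61 ± 1.52, −0.09 ± 1.48 and 0.69 ± 1.22. For Vamp8 they were 0.55 ± 2.06, 0.73 ± 2.08 and −0.18 ± 1.64. These 9 had an adjusted p from edgeR of at least 0.998. Stx7 had −1.09 ± 1.92, −1.59 ± 1.91 and 0.50 ± 1.62, Snap29 0.18 ± 2.47, −1.47 ± 2.36 and 1.65 ± 2.05, and Stx4a 1.12 ± 3.11, 2.25 ± 3.32 and −1.13 ± 2.44. The direction of Snap23 flipped in all 3 comparisons with the libraries of crossed numbers exchanged. The median log2 fold change of the members tested was 0.20, 0.75 and −0.50, beside 0.66, 1.38 and −0.52 over all genes tested. For the platelet secretion list, of which all 11 members were tested, it was 0.55, 0.73 and −0.85, and 0 were called or had an unadjusted p under 0.05.

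The lowest p-values belonged to genes at 0 in every library of one condition. These genes were picked by those p-values, so the bounds below add no support to them. The bounds cover counting error only. Members were at 0 in 45.2% of the pairs with at least 10 predicted counts, so the bounds do not measure a difference between conditions. Snap47, a SNAP protein of many tissues, had 48.5 and 399 CPM in WT replicates 2 and 3 and 44.6 CPM in dystrophic replicate 6, and was at 0 in the other 12 libraries. Pooled over the libraries of a condition, its level in WT was at least 492-fold higher than the limit that 0 counts set in the hypertrophic libraries (3 counts over the group). This bound rests on few libraries, and was 2554-fold without WT replicate 2 and 323-fold without WT replicate 3. Its adjusted p from edgeR was 0.267. Dystrophic replicate 6 is among the libraries of crossed numbers. With those exchanged, Snap47 was counted in a hypertrophic library, so the bound did not hold, and the pooled levels were 73.5 CPM in WT and 32.8 CPM in hypertrophic libraries (edgeR adjusted p = 0.54). Of its exons, 11.6% overlap a gene on the other strand.

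Vamp4, the R-SNARE of the trans-Golgi network, had 138 CPM in WT replicate 2 and 28.2, 132, 54.7 and 42.8 CPM in dystrophic replicates 1, 2, 5 and 6. It was at 0 in the 6 hypertrophic libraries, as in WT replicates 1 and 3. Against the limit in the hypertrophic libraries, its pooled level was at least 855-fold higher in WT (edgeR adjusted p = 0.267) and at least 290.4-fold higher in dystrophic libraries (edgeR adjusted p = 0.123). The first value rests on WT replicate 2, without which Vamp4 was at 0 in both conditions. Neither bound held with the libraries of crossed numbers exchanged, dystrophic replicates 5 and 6 among them. Vamp4 was then counted in 2 dystrophic and 2 hypertrophic libraries, at pooled levels of 16.8 and 35.1 CPM (edgeR adjusted p = 0.9997). DESeq2 gave adjusted p-values of 2.14e-11 and 1.85e-16 for these comparisons, and 2.77e-10 for Snap47 in hypertrophic against WT. Over the alternatives to edgeR's fit, including those, the adjusted p of Vamp4 ran from 1.85e-16 to 1.0 in hypertrophic against dystrophic and from 2.14e-11 to 1.0 in hypertrophic against WT, and that of Snap47 in hypertrophic against WT from 2.77e-10 to 0.98.

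Stx16, a Qa syntaxin of the trans-Golgi network, was counted in dystrophic libraries only, at 83.7, 95.1, 73.4 and 15.6 CPM in replicates 1, 3, 5 and 6. It passed edgeR's filter through those libraries alone. Its pooled level there was at least 167-fold above the limit in the hypertrophic libraries (edgeR adjusted p = 0.123) and at least 69.5-fold above that in WT (edgeR adjusted p = 0.433). Without dystrophic replicate 6 these bounds were 359.7-fold and 149.96-fold, and without WT replicate 2 the second was 5.22-fold. With the crossed libraries exchanged the first did not hold, since Stx16 was then counted in 2 libraries each of the dystrophic and hypertrophic conditions, at pooled levels of 18.7 and 16.3 CPM (edgeR adjusted p = 0.9997). Stx5a was at 0 in WT and had 21.4, 50.9 and 29.3 CPM in dystrophic replicates 1, 5 and 6 (pooled, at least 73.0-fold above the WT limit, edgeR adjusted p = 0.433). That bound was 5.48-fold without WT replicate 2 and 45.7-fold without dystrophic replicate 6. Its hypertrophic values were 118, 578 and 43.6 CPM in replicates 2, 5 and 6. Of the 28 members counted, 18 had counts in all 3 conditions, 4 in WT and dystrophic, 3 in dystrophic and hypertrophic, and 3 (Stx16, Stx17 and Stx1a) in dystrophic libraries alone. The same split over all genes counted was not made, so these numbers are not a result about the members. The dystrophic libraries also had the highest median number of genes detected (5136, against 2973 in WT and 2840.5 in hypertrophic libraries) and, in replicate 6, the deepest library. The part of this in the 3 genes was not tested.

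Of 12 other SNARE genes of the fusion machinery, 11 were counted and 2 in at least 10 libraries. Use1, a Qc SNARE of the ER, was counted in 12 libraries. It had 0, 340.4 and 321 CPM in WT, 219 to 773 CPM (median 342) in the dystrophic and 0 to 314 CPM (median 187) in the hypertrophic libraries. Gosr2, a Qb SNARE of the Golgi, was counted in 11, at 0, 166 and 0 CPM in WT, 0 to 257 CPM (median 105) in the dystrophic and 0 to 368 CPM (median 184) in the hypertrophic libraries. All 4 disassembly genes (Nsf, Napa, Napb, Napg) were counted, in 1 to 8 libraries. All 5 other SM protein genes were counted, in 2 to 4 libraries, and 7 of 17 priming and fusion regulators in up to 9. Of these 38 genes, edgeR tested 20, and 0 were called in any comparison. At an unadjusted p under 0.05, 2 were lower in hypertrophic than in WT, 2 lower in hypertrophic than in dystrophic and 0 in dystrophic against WT. Over all genes tested, 8.02%, 12.0% and 2.02% had such a p in these comparisons, in either direction.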

How the data were processed

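Bulk RNA-seq of plasma EV RNA was analysed in 15 libraries. Per the labels and the methods, the authors amplified the RNA, sequenced single reads, aligned them with TopHat to mm10 and deposited raw counts per gene symbol. HTSeq and DESeq are in the submitters' processing notes, while the annotation and the strand setting of the counting are not given in the sources used here. The deposited counts are whole numbers without normalization. The 5 summary lines of each table, which name no gene, held 57.9% to 99.2% of its numbers and were left out.

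CPM was computed over all gene symbols. Depth was 27227 to 32563362 gene reads, and 95% Wilson intervals were taken for single libraries. Differences were tested with edgeR 4.0.16 in R 4.3.3 (TMM, filterByExpr, quasi-likelihood fit of 15 libraries with condition as the only term, Benjamini-Hochberg adjusted p under 0.05 over all genes tested). Tested on simulated data, the fit recovered the changed genes at a small spread and none of them at a larger spread, which was still under the one estimated in these libraries. Alternatives were DESeq2 1.42.0, limma-trend 3.58.1 (prior count 2), other normalizations and filters, no mitochondrial or hemoglobin genes, exchanged or matching library numbers, and each library left out. Positions, exon lengths and overlaps are from GENCODE M21 (GRCm38), and promoters are from RefSeq.

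Named genes were the members counted in at least 10 libraries, the platelet secretion list, the 2 members with the lowest p in each comparison, any member with an adjusted p under 0.05 and the 3 members with the highest CPM in a library, and of the other lists the genes counted in at least 10 libraries. Other members that stood out were named after their values were seen. The members and lists were chosen with earlier results of these data known. The values of some members are not reported here.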

Additional observations from a re-analysis of the deposited data

Results flagged for a closer look

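Within a condition of 6 libraries, 9 values stood apart from the rest by Dixon's test on CPM, of 30 groups tested. The rate of about 1 in 20 that chance gives in that test does not hold for groups made largely of zeros, such as several of these. In the hypertrophic libraries these were Vamp7 at 486 CPM and Stx4a at 194 CPM in replicate 1, Stx2 at 44.5 CPM in the same replicate, Vamp2 at 126 CPM and Stxbp5 at 84.6 CPM in replicate 2, Stxbp2 at 87.1 CPM in replicate 3 and Stxbp3a at 446 CPM in replicate 4. In the dystrophic libraries they were Stxbp3a at 129.8 CPM in replicate 1 and Stxbp2 at 244 CPM in replicate 4. All 9 are the highest value of their group, and each of these groups also holds at least 1 library at 0. For Stx2 and Vamp2, 5 of the 6 hypertrophic libraries were at 0, so the library with counts stood apart by construction.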

How the results depend on the processing

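With 6, 6 and 3 libraries, pooled mice and a wide spread, single-gene differences were poorly resolved, and WT replicate 1 (27227 reads) limits what a 0 means. No paired analysis was possible because the replicate numbers follow accession order and only name libraries. No member was called by edgeR in any comparison when each library was left out (0 to 0). DESeq2 called 2 members in hypertrophic against WT and 2 in hypertrophic against dystrophic, beside 16.5% and 3.89% of all genes with an adjusted p. The DESeq2 adjusted p-values were 2.77e-10 for Snap47 and 2.14e-11 for Vamp4 in the first. In the second they were 2.32e-10 for Snap47 and 1.85e-16 for Vamp4. These genes had 0 counts in all hypertrophic libraries. Without mitochondrial and hemoglobin genes, the summed level was higher in every library. It then ran from 2393 to 4306 CPM in WT, with a median of 3519 CPM. The dystrophic libraries ran from 1411 to 3737 CPM and the hypertrophic ones from 2680 to 5379 CPM, so the ranges still overlapped. The share of zeros was 33.5% with at least 50 predicted counts and 37.0% with the median of the other libraries, and 41.4% to 48.8% with a library left out. Median members detected ran from 6.5 to 16 in WT, 11 to 20 in dystrophic and 6 to 12 in hypertrophic libraries with a library left out.

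Directions of the widely counted members changed, with each adjusted p over the threshold. With crossed libraries exchanged, the log2 fold changes were −0.18, 0.32 and −0.50 for Snap23 (hypertrophic against WT, dystrophic against WT, hypertrophic against dystrophic), −0.14, 0.64 and −0.78 for Stx11, −0.11 for Stx7 and 0.045 for Stx4a in hypertrophic against dystrophic, and −0.39 for Vamp8 in hypertrophic against WT. With only matching numbers they were −0.83 and −0.40 for Snap23 and −0.98 and −0.17 for Stx11 (hypertrophic against WT and against dystrophic), and −0.81 for Vamp8 and −0.16 for Stx4a in hypertrophic against WT. Limma-trend gave −0.91 for Snap23 in hypertrophic against WT, 2.51 for Stx11 in dystrophic against WT and −0.10 for Stx7 in hypertrophic against dystrophic. In dystrophic against WT, Snap23 had 0.24 without the expression filter, and Stx11 had 0.072 with DESeq2 and 0.13 without TMM. With each library left out, Snap23 ran from −0.22 to 0.57, −0.33 to 0.24 and −0.19 to 0.54 in the 3 comparisons, Stx11 from −0.66 to 0.54 in dystrophic against WT, Stx7 from −0.084 to 0.81 in hypertrophic against dystrophic, and Vamp8 from −0.017 to 2.02 in hypertrophic against WT and −0.62 to 0.088 in hypertrophic against dystrophic. Snap29 ran from −0.92 to 3.32 in hypertrophic against WT and −2.17 to 1.69 in dystrophic against WT, and Stx4a from −0.029 to 4.82 in hypertrophic against WT. The cause was not tested.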
